A study of Mus musculus with 9 samples.

Results

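The EGF receptor family and its ligands were described here as 9 genes, chosen by name among the 21950 genes of the expression table. They are the receptor genes Egfr, Erbb2 and Erbb3, the ligand genes Areg, Ereg, Hbegf, Tgfa and Btc, and Errfi1, which encodes MIG6, an intracellular inhibitor of the receptors; the remaining receptor gene, Erbb4, is treated with the other genes of the pathway. RNA was measured in MLE-12, an epithelial cell line from lung tumours of SP-C/TAg transgenic mice, in which the surfactant protein C promoter drives a viral T antigen. One group of cells received extracellular vesicles, membrane-bound particles shed by cells, that were recovered from the lavage fluid of syndecan-1 deficient mice whose lungs had been injured by bleomycin, which is given to cause fibrosis. A second group received the same kind of vesicles from injured wild-type mice, and the remaining group received regular medium; there were 3 libraries in each group. They are called deficient vesicles, wild-type vesicles and medium below. The deficiency was in the vesicle donors, and the cells of all 9 libraries were the same line at passage 17, grown with serum. The labels give no vesicle dose, no duration of treatment and no group with vesicles of uninjured mice, so injury of the donor and the presence of vesicles cannot be told apart. All vesicle samples carry D21 in their titles, and its meaning is not stated in the sources used here. Nothing says that the 3 libraries of a group came from separate cultures or vesicle preparations, so the p-values measure the spread between these libraries, which may be technical.

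Receptors of this family are tyrosine kinases that signal as pairs after a ligand binds. ERBB2 has no known ligand of its own and serves as a partner for the others, whereas ERBB3 binds neuregulins, has very weak kinase activity and signals mainly to PI3K through its partner. The ligands are made as membrane-bound precursors that are cut from the cell surface by ADAM proteases; HB-EGF and amphiregulin also bind heparan sulfate chains such as those carried by syndecans. In lung, EGF receptor signalling is known for its part in epithelial repair after injury and in alveolar growth.

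Expression was deposited as RPKM, which scales reads by the length of the gene and the size of the library, and library totals recovered from the values were between 24353257 and 33558660 reads. Tests were made with limma on log2(RPKM + 1) for 11125 genes, those whose mean RPKM was 1 or more, and a gene is called changed at a Benjamini-Hochberg adjusted p under 0.05 over all of them. Most genes were called against medium, 75.2% with deficient vesicles and 75.1% with wild-type vesicles. Of the 8370 genes called with deficient vesicles 5424 were higher (48.8% of tested genes) and 2946 lower, a split that became 4203 and 4194 under median-of-ratios scaling. Of the 8352 called with wild-type vesicles 5009 were higher (45% of tested genes) and 3343 lower, against 4216 and 4211 under that scaling. The scaling moved the median log2 difference of all tested genes by -0.14 and -0.095 in these comparisons and by -0.040 between the vesicles. Of 10 lung epithelial markers 6 reached 1 RPKM in some library, among them Krt8, Nkx2-1 and Sftpb, but Epcam was 0 in all 9 libraries; the 10 summed to 295 to 306 RPKM with deficient vesicles, 302 to 333 with wild-type vesicles and 397 to 406 in medium. The lower sum with vesicles came mainly from Krt8, which averaged 162 RPKM with deficient vesicles, 179 with wild-type vesicles and 337 in medium. Cdh1 was lower with vesicles too, at 0.157, 0.164 and 1.38 RPKM in the same groups. Sftpb (60.6, 62.4 and 13.6 RPKM) and Nkx2-1 (37.2, 34.2 and 24.0 RPKM) were higher on average with vesicles. So were Sftpc (18.8, 16.4 and 8.73 RPKM) and Abca3 (21.2, 21.0 and 16.0 RPKM). Among 8 fibroblast markers 3 reached 1 RPKM, with Tcf21 at 0, and they summed to 791 to 917 RPKM with deficient vesicles, 751 to 893 with wild-type vesicles and 272 to 281 in medium, most of it from Dcn. Dcn and Pdgfra were higher with vesicles, whereas Col1a1 was lower, at 45.7 RPKM with deficient vesicles, 46.5 with wild-type vesicles and 79.3 in medium. Of 7 airway markers 3 reached 1 RPKM. The 7 summed to 14.2 to 15.7 RPKM with deficient vesicles, 18.5 to 22.8 with wild-type vesicles and 28.0 to 28.8 in medium. Muc5b and Trp63 were lower with vesicles, whereas Foxj1 was higher, at 1.51, 1.17 and 0.191 RPKM in the same groups. None of 7 endothelial markers reached 1 RPKM, and these summed to 0.660 to 0.735, 0.613 to 0.679 and 0.361 to 0.450 RPKM. These sums moved with the vesicle groups compared below, and their part in the results was not tested. Macrophage markers, with Marco and Chil3 at 0, summed to 6.01 to 6.89, 5.63 to 6.74 and 5.91 to 6.12 RPKM in the same groups, and neutrophil markers, with Elane, Ly6g and Retnlg at 0, to 0.937 to 1.88, 1.18 to 1.60 and 1.04 to 1.43 RPKM. The macrophage and neutrophil sums overlapped between the groups. In bulk RNA, fewer cells that carry a transcript and less of it per cell cannot be told apart.

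Of the 9 genes, 8 had reads in all 9 libraries and Ereg had none in any. The levels fell into 2 kinds. Erbb2, Erbb3, Hbegf, Tgfa, Btc and Errfi1 passed the filter on mean RPKM, and Egfr, Areg and Ereg did not and are given as values only. In medium the order of mean RPKM was Erbb2, Hbegf, Erbb3, Errfi1, Tgfa, Btc, Areg, Egfr and Ereg, and no 2 neighbours in that order overlapped. With deficient vesicles Tgfa and Errfi1 changed places in that order and again no neighbours overlapped. With wild-type vesicles the order was that of medium, but Hbegf overlapped Erbb3 and Errfi1 overlapped Tgfa, so those pairs could not be ranked beyond their spread. The deposited Hbegf values correspond to a gene length of 2373 bases, against 4834 bases of annotated exons in GENCODE M21, so its place in this order and its share of the ligand sum depend on that length.

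**Figure D1:**
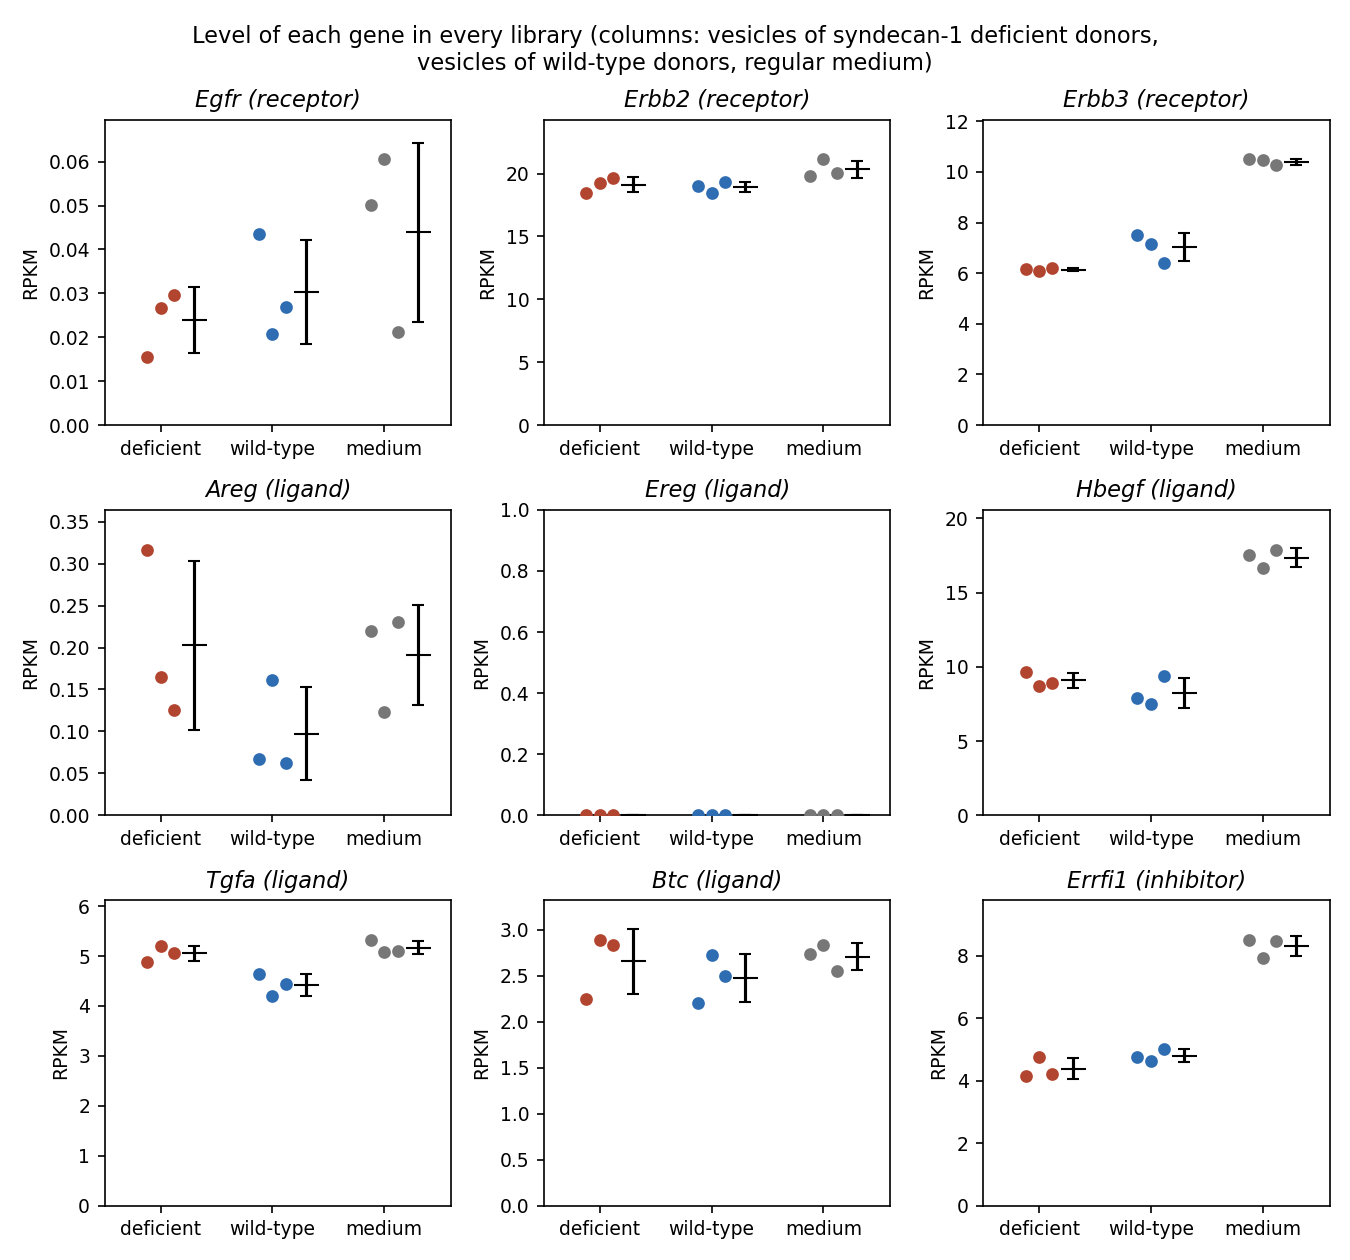
RPKM of each of the 9 genes in each library, with the deficient-vesicle libraries left of the wild-type-vesicle libraries and medium last; points are libraries, black marks are the group mean ± SD, and each panel has its own scale starting at 0. Hbegf, Erbb3 and Errfi1 were lower in all 6 vesicle libraries than in all 3 medium libraries, and Ereg was 0 throughout.

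Among the receptors, Egfr, on chromosome 11 (GRCm38, bases 16752203 to 16918158, plus strand), was close to absent. It had 5, 9 and 11 reads with deficient vesicles, 12, 6 and 8 with wild-type vesicles, and 17, 23 and 6 in medium. The 3 groups overlapped. Summed over libraries this is 0.0242 RPKM with deficient vesicles (exact 95% Poisson interval 0.0157 to 0.0357), 0.0301 with wild-type vesicles (0.0197 to 0.0441) and 0.0459 in medium (0.0336 to 0.0612); these intervals cover counting error only. A fit without the filter on low values did not call it in any comparison, with adjusted p of 0.175, 0.369 and 0.755 for deficient vesicles against medium, wild-type vesicles against medium, and deficient against wild-type vesicles.

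Erbb2, the partner receptor, on chromosome 11 (98412470 to 98437716, plus strand), was the highest of the 9 genes. It had 18.5, 19.2 and 19.7 RPKM with deficient vesicles, 19.0, 18.5 and 19.3 with wild-type vesicles, and 19.8, 21.1 and 20.0 in medium. All vesicle libraries lay below all medium libraries by a small margin, and the vesicle groups overlapped. The log2 difference from medium was -0.085 ± 0.042 with deficient vesicles (moderated SE; 95% interval -0.18 to 0.0071; adjusted p = 0.0847) and -0.098 with wild-type vesicles (-0.19 to -0.0055; adjusted p = 0.0529), and neither was called. Under median-of-ratios scaling, which lowers the vesicle libraries against medium, both were called, at -0.23 (adjusted p = 0.000305) and -0.20 (adjusted p = 0.000829). With wild-type vesicles Erbb2 was called lower in 5 of 16 alternatives in all, which makes 5 calls in place of 4 in that comparison. Between deficient and wild-type vesicles Erbb2 differed by 0.013, with an interval of -0.080 to 0.11.

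Erbb3, the neuregulin receptor, on chromosome 10 (128567523 to 128589652, minus strand), fell with both kinds of vesicles. It had 6.15, 6.08 and 6.19 RPKM with deficient vesicles, 7.50, 7.17 and 6.41 with wild-type vesicles, and 10.5, 10.5 and 10.3 in medium. No vesicle library reached a medium library, and every deficient-vesicle library lay below every wild-type-vesicle library, of which replicate 3 was nearest. The mean was 0.590 times that of medium with deficient vesicles (log2 difference -0.67 ± 0.052, adjusted p = 9.19e-07) and 0.675 times with wild-type vesicles (-0.51 ± 0.052, adjusted p = 7.60e-06). The difference between the vesicles, -0.17 ± 0.052 (95% interval -0.28 to -0.051), had an adjusted p of 0.0504 and was not called. It was called in 5 of 17 alternatives, with log2(RPKM + 0.1), a mean RPKM of at least 5, median-of-ratios scaling and voom (adjusted p = 0.0499, 0.0462, 0.0381 and 0.0437), and at -0.22 without wild-type replicate 3 (adjusted p = 0.00202). With only that wild-type library kept it was -0.052 (adjusted p = 0.761).

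Erbb2 was close in all groups and Erbb3 fell, so the makeup of the receptor transcripts differed. Summed over Egfr, Erbb2 and Erbb3, the receptors had 25.3 ± 0.627 RPKM with deficient vesicles, 26 ± 0.489 with wild-type vesicles and 30.8 ± 0.739 in medium (SD, n = 3 each). Erbb3 made up 24.3 ± 0.593%, 27.0 ± 1.85% and 33.8 ± 0.747% of these sums in the same groups, and Erbb2 nearly all of the rest. Egfr made up 0.0941%, 0.116% and 0.142%. These shares rest on RPKM, which is scaled by gene length, and are given without a test.

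**Figure D2:**
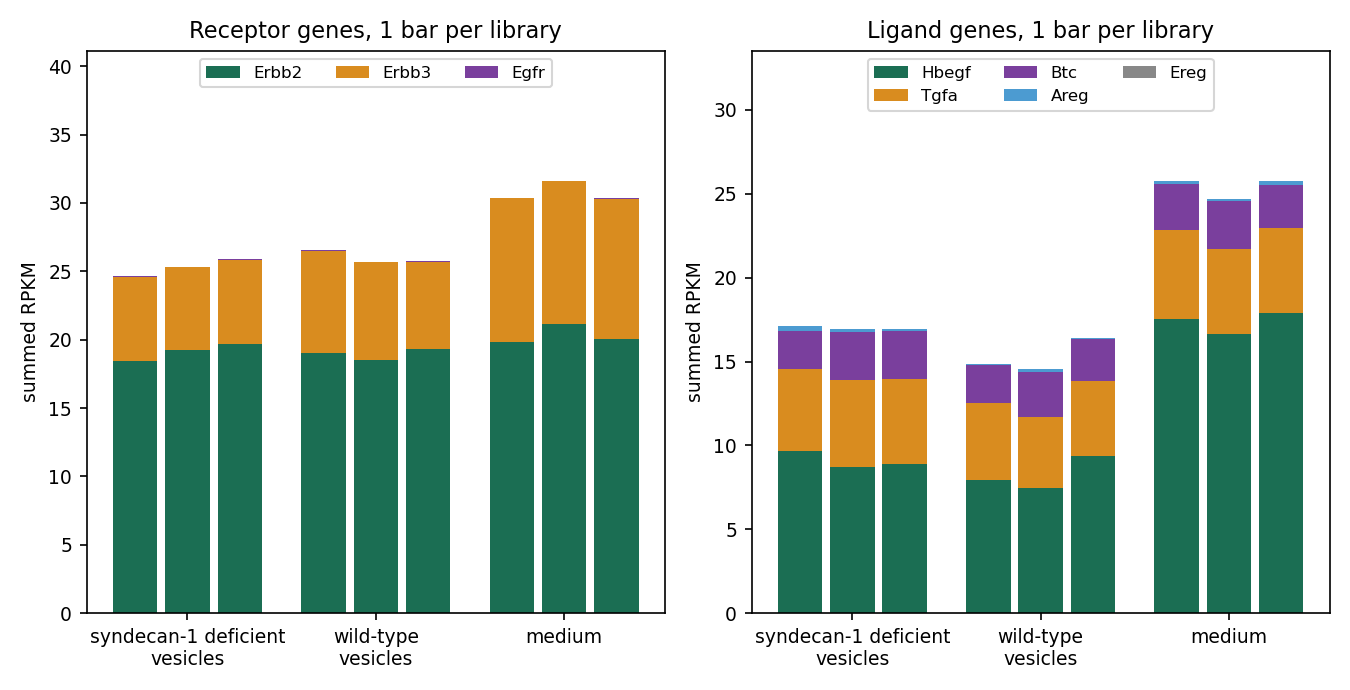
Summed RPKM of the receptor genes and of the ligand genes per library, stacked by gene, with deficient vesicles first and medium last. The ligand sum was 17.0, 15.3 and 25.4 RPKM on average in the 3 groups, and Hbegf accounts for most of the difference.

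Among the ligands Hbegf, on chromosome 18 (36504927 to 36515805, minus strand), had the highest deposited RPKM and fell the most. With vesicles that rank rests on the gene length of 2373 bases. Summed over libraries, Hbegf had 1965 reads with deficient vesicles, 1497 with wild-type vesicles and 3630 in medium. Tgfa had 2993, 2187 and 2967 in the same groups. Hbegf encodes HB-EGF, which binds EGFR and ERBB4. It had 9.66, 8.70 and 8.91 RPKM with deficient vesicles, 7.93, 7.47 and 9.38 with wild-type vesicles, and 17.5, 16.6 and 17.9 in medium. The vesicle groups overlapped each other and both lay wholly below medium. The mean was 0.524 times that of medium with deficient vesicles (log2 difference -0.86 ± 0.072, adjusted p = 1.80e-06) and 0.476 times with wild-type vesicles (-0.99 ± 0.072, adjusted p = 6.50e-07). Among tested genes 11.1% and 7.78% had a larger absolute log2 difference in those comparisons. The difference between the vesicles was 0.13 (-0.033 to 0.29; adjusted p = 0.218), and it was 0.21 and called without wild-type replicate 3 (adjusted p = 0.00971) but -0.042 with that wild-type library alone (adjusted p = 0.860).

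Tgfa, which encodes transforming growth factor alpha, a ligand of EGFR, on chromosome 6 (86195223 to 86275719, plus strand), differed little. It had 4.89, 5.20 and 5.07 RPKM with deficient vesicles, 4.63, 4.20 and 4.43 with wild-type vesicles, and 5.32, 5.08 and 5.10 in medium. The wild-type-vesicle libraries lay below all others, whereas deficient vesicles and medium overlapped. Tgfa was lower with wild-type vesicles than in medium by a log2 difference of -0.19 ± 0.046 (adjusted p = 0.00415), and with deficient vesicles the difference was -0.027 (-0.13 to 0.076; adjusted p = 0.613). Deficient vesicles against wild-type vesicles gave 0.16 ± 0.046 (0.055 to 0.26; adjusted p = 0.0433), the single call among the 6 tested genes in that comparison, where 18.4% of all tested genes were called, 12.9% higher and 5.43% lower. That call was lost in 12 of 16 alternatives, among them leaving out deficient replicate 2 or 3, wild-type replicate 1 or 2, or any medium library (0.13 to 0.19, highest adjusted p = 0.156). Under median-of-ratios scaling Tgfa was also called lower with deficient vesicles than in medium, by -0.16 (adjusted p = 0.00943).

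Btc, which encodes betacellulin, a ligand of EGFR and ERBB4, on chromosome 5 (91357261 to 91402994, minus strand), was not called in any comparison. It had 2.25, 2.89 and 2.83 RPKM with deficient vesicles, 2.21, 2.73 and 2.50 with wild-type vesicles, and 2.74, 2.84 and 2.56 in medium. All groups overlapped, with the lowest value of each vesicle group in replicate 1. The log2 difference from medium was -0.025 with deficient vesicles (-0.20 to 0.15; adjusted p = 0.794) and -0.095 with wild-type vesicles (-0.27 to 0.084; adjusted p = 0.302), and deficient against wild-type vesicles gave 0.071 (-0.11 to 0.25; adjusted p = 0.543).

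Areg and Ereg, the genes of amphiregulin and epiregulin, lie next to Btc on chromosome 5 (91139599 to 91148432 and 91074622 to 91093646, both plus strand). Areg had 11, 6 and 5 reads with deficient vesicles, 2, 5 and 2 with wild-type vesicles, and 8, 5 and 7 in medium, that is 0.202 ± 0.101, 0.0970 ± 0.0555 and 0.191 ± 0.0594 RPKM (SD, n = 3 each). The 3 groups overlapped, and no difference was detectable at this depth; without the filter on low values its adjusted p was 0.908, 0.162 and 0.231 for deficient vesicles against medium, wild-type vesicles against medium, and deficient against wild-type vesicles. Ereg had no read in any library. With 3 reads over the group as the limit, this allows up to 0.00796 RPKM with deficient vesicles, 0.00953 with wild-type vesicles and 0.00821 in medium. These limits use its 4128 annotated exon bases, since no length could be recovered without reads.

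The 5 ligands together summed to 17.0 ± 0.101 RPKM with deficient vesicles, 15.3 ± 0.980 with wild-type vesicles and 25.4 ± 0.633 in medium (SD, n = 3 each). Hbegf made up 53.5 ± 2.69%, 54.0 ± 3.02% and 68.2 ± 1.04% of these sums, and Tgfa 29.7 ± 1.09%, 29.1 ± 2.08% and 20.3 ± 0.474%. The Tgfa share was thus higher with vesicles although its level was not, since Hbegf fell.

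Errfi1, the gene of the inhibitor MIG6, which is itself induced by EGF receptor signalling, lies on chromosome 4 (150853919 to 150868892, plus strand). It had 4.15, 4.78 and 4.23 RPKM with deficient vesicles, 4.76, 4.62 and 5.03 with wild-type vesicles, and 8.51, 7.94 and 8.47 in medium. The vesicle groups overlapped and both lay wholly below medium. The mean was 0.528 times that of medium with deficient vesicles (log2 difference -0.79 ± 0.056, adjusted p = 5.03e-07) and 0.578 times with wild-type vesicles (-0.68 ± 0.056, adjusted p = 1.54e-06). Deficient against wild-type vesicles gave -0.11 (-0.23 to 0.015; adjusted p = 0.178).

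The 250 bases before the annotated start of 4 of these genes are shown because they set Errfi1, which fell, beside Erbb2, the most abundant of the 9 genes, and Areg and Egfr, which had few reads. Promoter entries (RefSeq, GRCm38.p6) matched 6 of the 9 genes, and the windows shown are on the plus strand. Capitals mark matches, on either strand, to the GC box GGGCGG, the TATA box TATAAA and the cAMP response element TGACGTCA; the AP-1 motif TGANTCA and the E-box CACGTG were searched too, and in these windows no motif overlapped a different one.
Errfi1, second start, chr4:150854820-150855069: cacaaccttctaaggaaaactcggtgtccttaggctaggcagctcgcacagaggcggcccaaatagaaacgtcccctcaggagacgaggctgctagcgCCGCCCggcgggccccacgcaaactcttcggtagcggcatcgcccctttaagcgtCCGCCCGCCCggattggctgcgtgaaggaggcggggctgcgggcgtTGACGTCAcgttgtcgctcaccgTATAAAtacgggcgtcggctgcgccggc
Areg, chr5:91139349-91139598: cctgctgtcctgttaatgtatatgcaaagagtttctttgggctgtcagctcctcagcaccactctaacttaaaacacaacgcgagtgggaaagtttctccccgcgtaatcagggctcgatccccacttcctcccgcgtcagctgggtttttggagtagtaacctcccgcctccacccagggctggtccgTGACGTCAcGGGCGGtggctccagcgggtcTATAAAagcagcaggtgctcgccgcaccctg
Egfr, chr11:16751953-16752202: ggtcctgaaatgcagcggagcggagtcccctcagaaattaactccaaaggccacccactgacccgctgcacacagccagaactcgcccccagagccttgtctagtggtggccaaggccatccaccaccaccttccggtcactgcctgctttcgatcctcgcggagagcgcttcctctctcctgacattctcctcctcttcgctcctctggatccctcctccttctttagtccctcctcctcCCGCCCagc
Erbb2, chr11:98412234-98412483: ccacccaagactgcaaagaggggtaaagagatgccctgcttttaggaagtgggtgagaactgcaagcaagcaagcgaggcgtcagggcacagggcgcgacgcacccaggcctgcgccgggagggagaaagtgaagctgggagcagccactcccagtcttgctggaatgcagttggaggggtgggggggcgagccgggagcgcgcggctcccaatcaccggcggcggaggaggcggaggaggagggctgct
The window before the second Errfi1 start held 3 GC boxes, of which a pair overlap, 1 TATA box and 1 cAMP response element, and the Areg window held 1 of each. The window before the first Errfi1 start (chr4:150853546-150853795), not printed, held none of the 5 motifs and was 38% G and C; which start the cells used cannot be told from values per gene. The Egfr window held 1 GC box and the Erbb2 window none of the 5 motifs. Among the 32851 tabulated promoters, 32.7% held a GC box, 12.4% a TATA box, 1.55% the cAMP response element, 6.75% the AP-1 motif and 6.02% the E-box. The windows were 64.8%, 57.2%, 60.8% and 66% G and C in the order shown, against a table median of 52.4%. A match is a description of letters, not evidence of a bound factor.

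Against medium, then, 3 of the 6 tested genes were called with deficient vesicles and 4 with wild-type vesicles, and all of these were lower. Over all tested genes 26.5% were called lower with deficient vesicles and 30% with wild-type vesicles. Since 75.2% and 75.1% of all genes were called in either direction, the number of calls does not set the family apart. Its direction was down in each called case. The median log2 difference of all tested genes was 0.13 and 0.090, and -0.0028 and -0.0046 under median-of-ratios scaling. With that scaling 37.7% and 37.9% of all tested genes were called lower. Groups that did not overlap were seen for 4 of the 6 genes with deficient vesicles and 5 with wild-type vesicles, all lower than medium. The same held for 81% of all tested genes with deficient vesicles (51.4% higher, 29.5% lower) and 78.2% with wild-type vesicles (46.9% higher, 31.3% lower). Between deficient and wild-type vesicles Erbb3 and Tgfa did not overlap, and nor did 32.3% of all tested genes (21.1% higher, 11.2% lower). Both comparisons with medium share the medium libraries. The 3 falls of Erbb3, Hbegf and Errfi1 were called in both comparisons under all 16 alternatives, with a highest adjusted p of 0.000111.

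**Figure D3:**
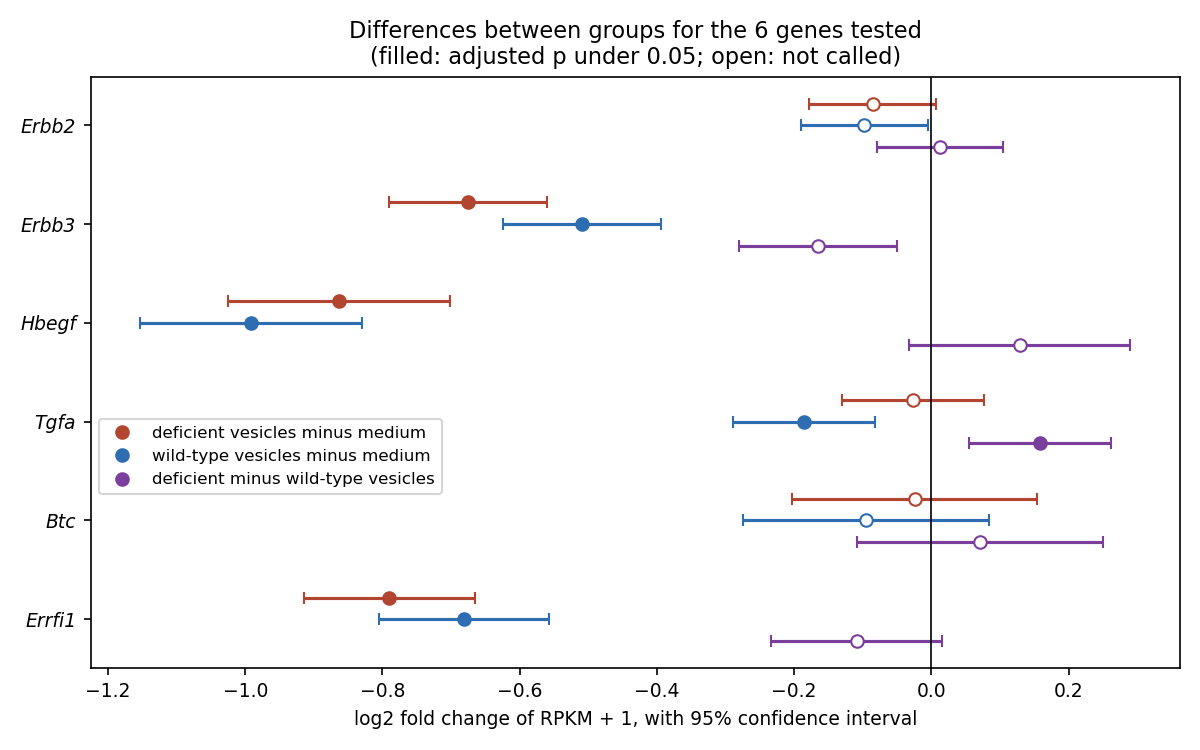
Log2 difference of each tested gene with its 95% interval for deficient vesicles against medium, wild-type vesicles against medium, and deficient against wild-type vesicles, from limma on log2(RPKM + 1), with filled points for called differences. Hbegf, Errfi1 and Erbb3 lie well below 0 against medium, with differences between -0.51 and -0.99, and differences between the vesicles lie between -0.17 and 0.16.

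Transcripts of an ERBB3 ligand were present. Nrg1, a neuregulin gene named here after its values were seen, had 15.1, 11.8 and 10.7 RPKM with deficient vesicles, 15.4, 17.0 and 15.7 with wild-type vesicles, and 12.4, 10.5 and 12 in medium. The wild-type-vesicle libraries were above all others, and deficient vesicles overlapped medium. Nrg1 was higher with wild-type vesicles than in medium (log2 difference 0.44, adjusted p = 0.00327), and the difference was 0.090 with deficient vesicles (adjusted p = 0.453). Deficient against wild-type vesicles gave -0.35 (adjusted p = 0.0471), a call lost in 11 of 17 alternatives. Nrg4, which encodes a ligand of ERBB4, averaged 1.35 RPKM with deficient vesicles, 0.923 with wild-type vesicles and 1.52 in medium. It was lower with wild-type vesicles than in medium (-0.39, adjusted p = 0.000383) and was not called with deficient vesicles (-0.099, adjusted p = 0.207). Between deficient and wild-type vesicles Nrg4 differed by 0.29 (adjusted p = 0.0291), a call lost in 8 of 16 alternatives. Erbb4 itself did not exceed 0.0113 RPKM in any library, and Egf averaged 0.649, 0.550 and 0.669 RPKM in the 3 groups.

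The lists of other pathway genes are read against all tested genes, of which 48.8% were called higher and 26.5% lower with deficient vesicles, and 45% higher and 30% lower with wild-type vesicles. Under median-of-ratios scaling these shares became 37.8% and 37.7% with deficient vesicles and 37.9% and 37.9% with wild-type vesicles. Ligand shedding was represented by 10 genes, of which 9 were tested. With deficient vesicles 5 were higher and 1 lower than medium, and with wild-type vesicles 5 were higher and 2 lower; the list median was 0.18 and 0.20. Under the scaling 3 were higher and 3 lower with deficient vesicles, and 4 and 2 with wild-type vesicles. Adam8, a membrane protease, averaged 2.27 RPKM with deficient vesicles, 2.09 with wild-type vesicles and 0.601 in medium (log2 differences from medium 1.03 and 0.95). Timp3, an inhibitor of ADAM17, averaged 59.1, 52.9 and 31.9 RPKM (0.86 and 0.71). Adam17 itself was not called with deficient vesicles (-0.071) and was called lower with wild-type vesicles (-0.12, adjusted p = 0.0496). Adam10 rose by 0.36 and 0.26. Thus the protease gene Adam8 and the inhibitor gene Timp3 were both higher, whereas Adam17 was not.

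For receptor degradation and restraint, 25 of 29 listed genes were tested. With deficient vesicles 10 were higher and 4 lower than medium, and with wild-type vesicles 10 and 7, with medians of 0.062 and 0.045, below the 0.13 and 0.090 of all tested genes. Under the scaling 4 were higher and 8 lower with deficient vesicles, 5 and 10 with wild-type vesicles, and the medians were -0.083 and -0.050. Cblb, a ubiquitin ligase for activated receptors, rose by 0.87 and 0.76 on the log2 scale, and Lrig3, of a family of transmembrane proteins that act on ERBB receptors, by 0.70 and 0.82. Sh3kbp1 and Cd2ap, adaptors that bind CBL proteins, changed by -0.77 and -0.65 with deficient vesicles and by -0.75 and -0.72 with wild-type vesicles. In the family of Lrig3, Lrig2 changed by 0.47 with deficient vesicles and 0.48 with wild-type vesicles. Lrig1 changed by -0.41 and -0.40, and both genes were called with either vesicle. Errfi1 fell while these genes of the list moved in both directions.

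All 20 listed genes of the adaptors and the RAS and ERK cascade were tested. With deficient vesicles 9 were higher and 4 lower than medium, and with wild-type vesicles 7 and 7, with medians of 0.11 and -0.00049. Under the scaling the counts were 7 and 9 with each kind of vesicle. Gab2, a docking protein, averaged 4.86 RPKM with deficient vesicles, 5.24 with wild-type vesicles and 2.18 in medium, and its relative Gab1 44.1, 46.3 and 30.9 RPKM. Hras averaged 15.7, 16.5 and 21.2 RPKM in the same groups and was called lower with either vesicle.

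For the PI3K, AKT, PLC and STAT arm, of 17 genes tested, 14 were higher and 2 lower than medium with deficient vesicles, and 14 were higher and 3 lower with wild-type vesicles. The median log2 difference was 0.35 and 0.34, against 0.13 and 0.090 over all tested genes. Under the scaling 10 were higher and 3 lower with deficient vesicles (median 0.21), and 13 and 3 with wild-type vesicles (median 0.25). Plcg1, the phospholipase recruited by the receptors, averaged 25.8 RPKM with deficient vesicles, 27.4 with wild-type vesicles and 13.7 in medium. Akt1 averaged 59.4, 58.1 and 78.0 RPKM and Src 13.7, 13.9 and 16.8 RPKM, and both were called lower.

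Genes known to be induced by EGF moved in both directions. Of 24 tested, 11 were higher and 8 lower than medium with deficient vesicles, and 10 were higher and 9 lower with wild-type vesicles, with medians of 0.13 and 0.11, against 0.13 and 0.090 over all tested genes; under the scaling the counts were 9 and 9, and 10 and 9. Spry2 and Dusp1, feedback inhibitors of the cascade, rose by 1.38 and 1.36 on the log2 scale with deficient vesicles and by 1.31 and 1.37 with wild-type vesicles. Ccnd1, the gene of cyclin D1, averaged 28.4 RPKM with deficient vesicles, 31.9 with wild-type vesicles and 142 in medium, and Plaur, the urokinase receptor gene, 2.41, 2.76 and 10.9 RPKM. The lists were chosen with earlier results of these data known, so their counts are a description.

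**Figure D4:**
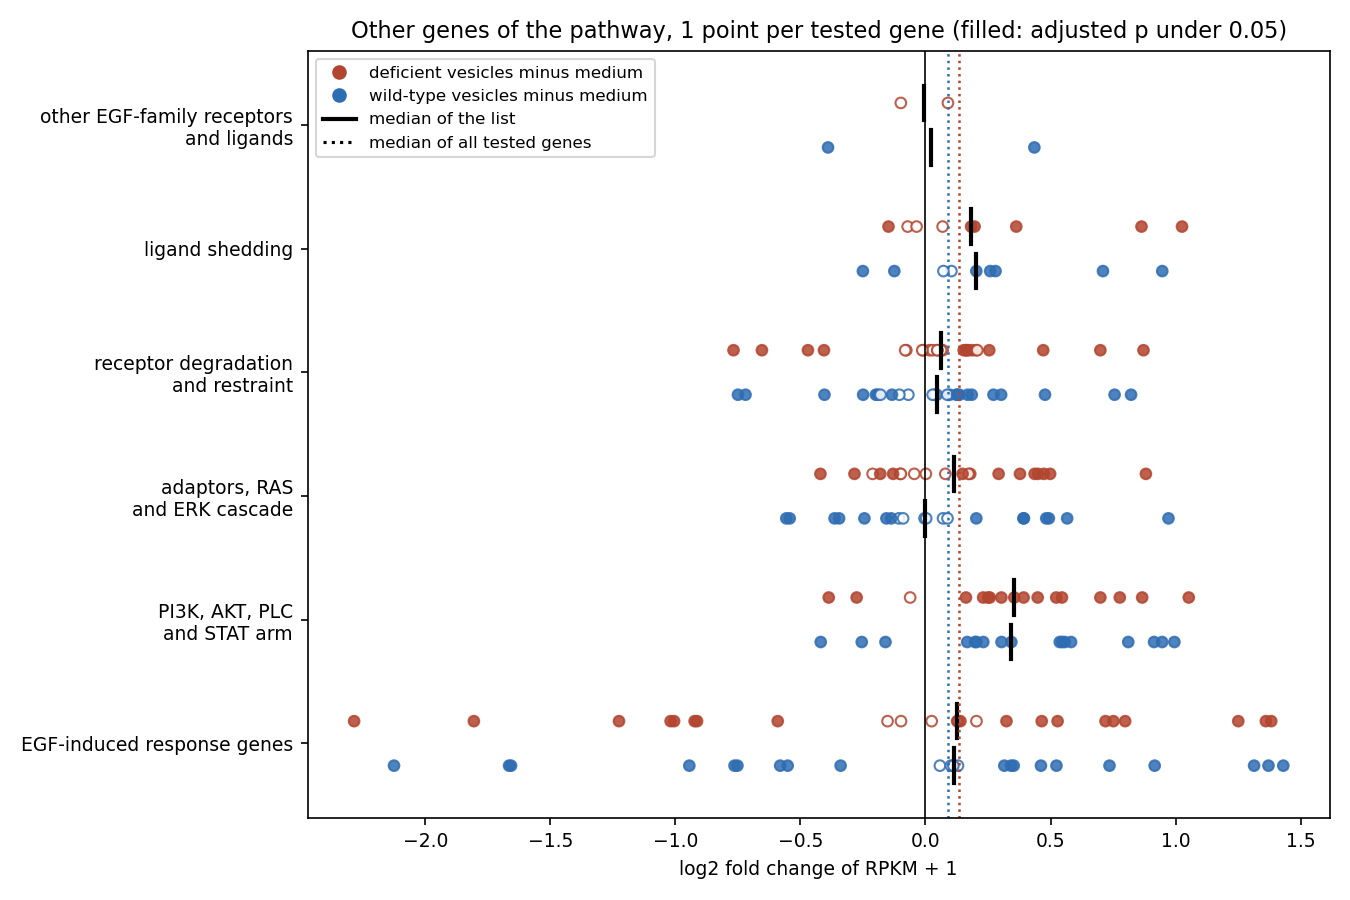
Log2 difference from medium of the tested genes of each pathway list, deficient vesicles above wild-type vesicles, with filled points for called genes, black lines for list medians and dotted lines for the medians of all tested genes. The PI3K, AKT, PLC and STAT list has medians of 0.35 and 0.34, and the EGF-induced list spreads from Ccnd1 at -2.28 to Spry2 at 1.38 with deficient vesicles.

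The genes most like each member across the 9 libraries were taken by the Euclidean distance between centred log2(RPKM + 1) profiles, a description of profiles alone. Erbb3 was nearest to Pwp1 (distance 0.0776) and Psmc1 (0.0914), and Hbegf to Set (0.0861) and Ftsj3 (0.114). Errfi1 was nearest to Farsb (0.133) and Dusp4 (0.174), Tgfa to Lsm14a (0.104) and Zfyve16 (0.108), Erbb2 to Stard13 (0.0615) and Celf1 (0.0801), and Btc to Ube2d1 (0.154) and Tnip1 (0.155). No member was the nearest gene of another.

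Reads of these genes could mostly be assigned. Of their exonic 50-base sequences, 2.26% for Ereg, 1.08% for Tgfa and 0.231% for Egfr also occur in another annotated gene, and 0 for the other members. On the opposite strand, Tgfa overlaps Gm43917 by 118 of its 6490 exon bases, Ereg overlaps Gm19610 by 141 and Erbb2 overlaps Mien1 by 9. Whether reads were counted by strand is not given in the sources used here. Within these stretches, reads of a member and of its partner therefore cannot be told apart.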

How the data were processed

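RNA was measured in 9 MLE-12 libraries of 3 groups. Per the labels' protocols, Trizol was used for extraction and a TruSeq stranded kit for mRNA libraries. TopHat2 2.0.7 and the builds GRCm38 and mm10 are named in the submitters' processing notes; the read counter and annotation are not given in the sources used here. The authors deposited RPKM values, per the file headers. Medium columns were matched to their group by elimination. Reads were recovered from RPKM steps for 95.7% of the genes above 0 (within 0.01 of a whole number) and for all 11125 tested genes.

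Genes whose mean RPKM was 1 or more were fitted as log2(RPKM + 1) with limma 3.58.1 in R 4.3.3 (3 groups, variance trend). Benjamini-Hochberg adjustment was over all tested genes. The method was also run on simulated data with far fewer changed genes than were called here, all in the deficient group. Those data therefore do not show how it performs when most genes differ. The added 1 makes differences of low genes smaller. Coordinates are 1-based, from GENCODE M21.

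Members and lists were chosen with earlier results of these data known. From each list the text names up to 2 genes per direction with the largest mean change among those called the same way against medium with both vesicles; other genes were named after their values were seen. Some genes that this rule names are not reported here. Likeness took the 2 nearest tested genes. Other settings were another pseudocount, other filters, another scaling, 2-group fits, a replicate block, left-out libraries and, added after seeing the data, voom on recovered reads and the scaled counts of the lists.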

Additional observations from a re-analysis of the deposited data

How the results depend on the processing

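Of 288 results of the 6 tested genes under alternative settings 263 kept their call, 12 lost it and 13 gained it. A reversal was counted only where a result was called, and there were 0. Differences that were not called could change sign: Btc with deficient vesicles against medium went from -0.025 to 0.058 without deficient replicate 1. All 12 losses were of Tgfa between deficient and wild-type vesicles. The 5 calls of these genes against medium under median-of-ratios scaling with deficient vesicles, against 3 as reported, add Erbb2 and Tgfa. Between deficient and wild-type vesicles the count of 1 became 2 with log2(RPKM + 0.1) and with voom (Tgfa and Erbb3), and 0 without the filter on low values, with only the 2 groups compared, under the replicate block and with wild-type libraries 1 and 2 both left out. With median-of-ratios scaling and with a mean RPKM of at least 5 it stayed at 1, but that gene was Erbb3, lower (adjusted p = 0.0381 and 0.0462), not Tgfa. It ranged from 0 to 3 with 1 library left out, with 3 (Tgfa, Erbb3 and Hbegf) without wild-type replicate 3.

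Over all genes that comparison is fragile. The 2042 calls became 1 without the filter (4976 at an unadjusted p under 0.05), 0 with only the 2 groups (3397), 1 under the replicate block (3156) and 0 with wild-type libraries 1 and 2 left out (1074), whereas voom gave 2414. Leaving out 1 library gave 0 to 4686 calls: 0 without deficient replicate 2, wild-type replicate 1 or wild-type replicate 2 (3132, 2851 and 2818 at an unadjusted p under 0.05), 2 without deficient replicate 3, 704 to 909 without a medium library, and 4686 without wild-type replicate 3. The cause was not tested. A fit with 1 library left in a group assumes that it varies like the others.

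Same-numbered deficient and wild-type libraries had deviations that correlated at 0.11, -0.13 and 0.036. Differently numbered libraries correlated from -0.16 to 0.16. With 3 libraries a group these values cannot settle whether the numbers pair the samples. Under the block Tgfa gave 0.16 with an adjusted p of 0.176. No block was fitted against medium, whose columns were tied to the group by elimination and not to single numbered samples. Of 968 results of the named pathway genes 927 kept their call, 38 were lost, all between the vesicles, and 3 were gained. By the same rule 0 reversed, and differences that were not called could again change sign. Tgfa and Btc were not tested with a mean RPKM of at least 5. Depth limits Egfr, Areg and Ereg.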
